A study of Homo sapiens with 6 samples.

Results

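The genes described here are QKI and 8 further regulators that give tissues their own splicing patterns: MBNL1, MBNL2, RBFOX2, PTBP1, PTBP2, CELF1, ESRP1 and RBM24. They were picked by gene symbol as 9 of the 20745 genes of a comparison of human podocytes with and without levamisole. The choice was made with the values of that comparison known, QKI having one of its smallest adjusted p-values, so the values below describe these genes and test nothing about them.

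Podocytes of the conditionally immortalized human line AB 8/13, which divides at a permissive temperature and differentiates at a restrictive one, were differentiated and then either left without the drug (control) or given 1 µM levamisole for 24 h. There were 3 cultures in each group, from different passages of this single line within a group. Whether control and levamisole cultures shared passages is not given in the sources used here. For the control, the treatment labels give medium without serum, whereas the study's methods give complete medium, and which is right could not be settled. The treatment label of the levamisole cultures names the drug, its dose and the time, and no medium. If the media differed, medium and drug cannot be told apart. The sequencing followed CEL-seq, a method whose barcoded primer anneals to the poly(A) tail, so reads come from near the 3′ end of a transcript and are counted per gene.

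Each gene has a base mean, which is its normalized count averaged over the libraries of the authors' fit, a log2 fold change with a standard error, and a Wald test p-value from DESeq2. Base means are given as the depth behind a value and not as an order of expression. No value per culture or per group was analysed here, so library depths are unknown, the spread between cultures is seen only through the standard error, and no culture could be left out. Signs needed a decision. The log2 fold changes as deposited had the opposite sign to the study's supplementary lists of higher and lower genes for all 44 genes compared, whereas the name of the comparison puts levamisole first. The sign was reversed to follow the study, so a negative value below means lower with levamisole, and all directions would flip under the deposited sign. In these bulk cultures, fewer cells that express a gene and less RNA per cell cannot be told apart.

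Alternative splicing joins the exons of one gene in different ways, and proteins that bind short RNA motifs beside an exon decide whether it is kept. QKI is a KH domain protein of the STAR family, known from myelination, from smooth muscle and from the splicing that accompanies a mesenchymal state. The muscleblind proteins MBNL1 and MBNL2 bind through zinc fingers and shift exons towards adult patterns, while CELF1 often works against them. RBFOX2 binds UGCAUG, and PTBP1 binds pyrimidine-rich RNA and holds back neuronal exons. ESRP1 is a regulator of epithelial exons and RBM24 of muscle exons. The choice of isoforms by such proteins is not shown by counts of whole genes.

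The level of QKI itself adds up several proteins. GENCODE 44 holds 6 different complete coding sequences of QKI, and 4 of them share their first 934 coding bases and then part. Their ends are shown because one count covers them all. The last 15 shared bases are in lower case and the coding bases after the split, without the stop codon, are in capitals.
QKI-203: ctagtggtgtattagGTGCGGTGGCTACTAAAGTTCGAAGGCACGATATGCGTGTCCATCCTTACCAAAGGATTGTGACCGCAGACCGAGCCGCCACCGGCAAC
QKI-201: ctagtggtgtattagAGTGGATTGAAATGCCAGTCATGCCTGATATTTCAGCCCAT
QKI-205: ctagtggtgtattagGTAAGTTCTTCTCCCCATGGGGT
QKI-207: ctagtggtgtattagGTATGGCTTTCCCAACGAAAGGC
The transcript QKI-203 encodes 341 amino acids, the nuclear form QKI-5. It has 89 coding bases after the split, and the transcript ends at 163578592. Its last coding base, at 163570707 on chromosome 6, is also that of QKI-202, which is not shown above. QKI-201 (QKI-7, 325 codons) and QKI-207 (QKI-6, 319 codons), forms found largely in the cytoplasm, stop at 163564707 and 163565968, and both transcripts end at 163570145. A shift between these forms that left their sum alone would not appear in the counts.

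QKI was lower with levamisole. QKI (ENSG00000112531, chromosome 6 of GRCh38, 163414000 to 163578592, plus strand) had a base mean of 1078, above that of 96.7% of the genes. Its log2 fold change was -0.64 with a standard error of 0.116, that is 0.640 times the control level, with a 95% interval of the ratio from 0.546 to 0.749. The adjusted p-value for QKI is 5.31e-05 (DESeq2, Benjamini-Hochberg). By p-value it stood at place 6 of the 12297 genes that have an adjusted p-value and at place 5 of those that were lower. By size it was less exceptional, since 88.2% of these genes had a smaller absolute log2 fold change. These genes were not matched to QKI in base mean, and many had larger standard errors. Among the 200 genes nearest to QKI in base mean the median standard error was 0.147. Its place by p-value thus went with a moderate size and a small standard error.

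Among the 8 regulators with an adjusted p-value, 1 was under 0.05, beside 3.18% of all 12297 genes. This gene was lower, beside 1.72% of the genes, and none was higher, beside 1.46%. The 95% interval excluded 0 for 3 of the 8, beside 17.1% of the genes. It lay below 0 for QKI and PTBP1, as for 8.69% of the genes, and above 0 for MBNL2, as for 8.38%. Log2 fold changes were below 0 for 4 of the 8 genes and above 0 for the other 4, and 49.6% of all genes were below 0. Their median log2 fold change was -0.01, beside 0.003 over the 12297 genes, and their median absolute log2 fold change 0.23, beside 0.24. The 8 genes had no common direction, and their sizes were near the median over all genes. Depth was not matched in this comparison. Base means ran from 32.6 to 1221 for the 8, and from 8.59 upwards for all genes with an adjusted p-value. MBNL2, the gene nearest to the threshold on its other side, has a listed adjusted p-value of 0.0996 (DESeq2, Benjamini-Hochberg).

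The settings tried change the adjustment or the threshold alone, so they cannot turn a direction, and QKI was chosen with its adjusted p-value known. Among the 9 it alone passed with an adjusted p-value under 0.01 (0.773% of all genes), with Benjamini-Hochberg adjustment extended to every gene that has a p-value (1.01%), and with Bonferroni adjustment (0.116%). An adjusted p-value under 0.1 was found for 2 of the 9, QKI and MBNL2, beside 5.75% of all genes, and an unadjusted one under 0.05 for 3, QKI, MBNL2 and PTBP1, beside 11.1%.

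**Figure D1:**
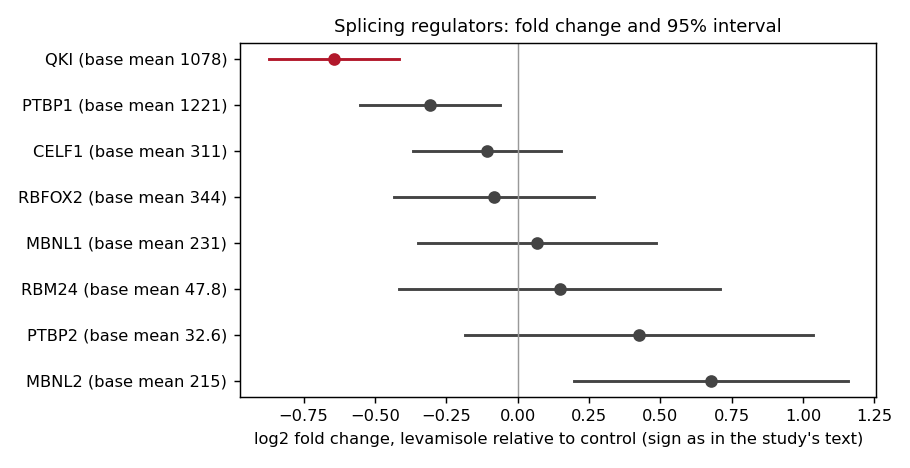
Log2 fold change with levamisole relative to control (horizontal axis) for the 8 regulators with an adjusted p-value, each with its base mean. Points are the estimates, lines the 95% intervals from the standard error, and red marks an adjusted p-value under 0.05. QKI lies lowest at -0.64 and MBNL2 highest at 0.68, and the lines of 5 genes cross 0. The sign was reversed from the deposited one.

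The muscleblind pair stood apart from each other in estimate. MBNL2 (ENSG00000139793, chromosome 13, 97221434 to 97394120, plus strand) had a base mean of 215 and a log2 fold change of 0.68 with a standard error of 0.245. This is 1.598 times the control level (95% interval 1.15 to 2.23), and 89.2% of the 12297 genes had a smaller absolute log2 fold change. In size this is like the value of QKI with the opposite sign, but the standard error of MBNL2 was 0.245 where that of QKI was 0.116. MBNL1 (ENSG00000152601, chromosome 3, 152243828 to 152465780, plus strand) had a similar base mean of 231 and a log2 fold change of 0.07 (95% interval -0.35 to 0.49). The intervals of MBNL1 and MBNL2 overlap, and the difference between them was not tested. The third muscleblind gene, MBNL3, with a base mean of 33.7, had a log2 fold change of 0.58 and an interval from -0.11 to 1.27, and its adjusted p-value is 0.407 (DESeq2, Benjamini-Hochberg). All 3 muscleblind estimates were above 0. None had an adjusted p-value under 0.05, and MBNL2 alone had an unadjusted p-value under 0.05, 0.00571.

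The polypyrimidine tract proteins gave estimates of opposite sign. PTBP1 (ENSG00000011304, chromosome 19, 797075 to 812327, plus strand), the form of most tissues, had a base mean of 1221. Its log2 fold change was -0.31 with a standard error of 0.125, or 0.808 times the control level (95% interval 0.682 to 0.958). The adjusted p-value of PTBP1 is 0.159 (DESeq2, Benjamini-Hochberg). PTBP2 (ENSG00000117569, chromosome 1, 96721665 to 96823738, plus strand), the neuronal form, had a base mean of 32.6 and a log2 fold change of 0.43 (95% interval -0.19 to 1.04), which includes 0. On the linear scale this interval runs from 0.880 to 2.05 times the control level. Of 7 neuron markers, base means ran from 0.239 for TUBB3 to 1077 for NEFL, and 5 of the 7, SNAP25 and STMN2 among them, had no adjusted p-value. PTBP3, the remaining gene of the family, had a base mean of 649.9 and a log2 fold change of -0.02 (95% interval -0.19 to 0.15).

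PTBP1 is known to repress PTBP2 through an exon of PTBP2 whose skipping shifts the reading frame, and that exon is shown with the intron before it. It is exon 10 of the main transcript, 34 bases long and so not a multiple of 3, at chr1:96806419-96806452 of GRCh38 on the plus strand. The 80 intronic bases before it, from 96806339, are in lower case and the exon is in capitals.
PTBP2 exon 10: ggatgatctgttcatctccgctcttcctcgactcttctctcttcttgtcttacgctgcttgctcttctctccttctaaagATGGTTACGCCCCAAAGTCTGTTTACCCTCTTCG
Of these 80 bases 76.2% are C or T. GENCODE 44 lists 12 transcripts of PTBP2 with the exon and 6 that span its place without it. Gene counts taken near the 3′ end do not separate these transcripts, so use of the exon was not measured.

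RBFOX2 and CELF1 were close to no change and well enough counted to bound it. RBFOX2 (ENSG00000100320, chromosome 22, 35738736 to 36028824, minus strand) had a base mean of 344 and a log2 fold change of -0.08, which is 0.944 times the control level (95% interval 0.740 to 1.20). CELF1 (ENSG00000149187, chromosome 11, 47465933 to 47565569, minus strand) had a base mean of 310.5 and a log2 fold change of -0.11, which is 0.928 times the control level (95% interval 0.775 to 1.11). For both genes the interval lies inside a 2-fold change in either direction, as it does for 6 of the 8 regulators, MBNL2 and PTBP2 being the exceptions. The adjusted p-values are 0.862 for RBFOX2 and 0.733 for CELF1 (DESeq2, Benjamini-Hochberg).

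Their relatives were measured less well. CELF2 had a base mean of 55.2 and a log2 fold change of 0.30 (95% interval -0.33 to 0.93). CELF4 had a base mean of 16.3 and a log2 fold change of -0.40 (95% interval -1.51 to 0.72). RBFOX3, a neuronal gene, had a base mean of 5.45 and no adjusted p-value. RBFOX1, CELF3 and CELF6 had no entry under these symbols among the 20745 genes.

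The epithelial regulator ESRP1 had almost no counts, and the muscle regulator RBM24 a moderate base mean. ESRP1 (ENSG00000104413, chromosome 8, 94641074 to 94707466, plus strand) had a base mean of 0.721, lower than all but 13.5% of the genes, and no adjusted p-value. The interval of its log2 fold change ran from -6.57 to 4.90, so no difference in ESRP1 was detectable at this depth. Its relative ESRP2 had a base mean of 41.8 and a log2 fold change of -0.28 (95% interval -1.01 to 0.45). Of the epithelial markers, CDH1 and CLDN7 had base means of 0.546 and 0.953, while EPCAM had 76.3 and the keratin gene KRT8 had 534. None of the 5 epithelial markers with an adjusted p-value was under 0.05, also without adjustment. GRHL2 and OVOL1 had no entry under these symbols among the 20745 genes.

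RBM24 (ENSG00000112183, chromosome 6, 17281361 to 17293871, plus strand) had a base mean of 47.8, above that of 59.5% of the genes. The log2 fold change of RBM24 was 0.15 (95% interval -0.42 to 0.71), or 0.749 to 1.64 times the control level. Its relative RBM38 had a base mean of 138.6 and a log2 fold change of 0.06 (95% interval -0.33 to 0.46). Of 8 markers of skeletal and heart muscle, ACTC1 had a base mean of 4.43 and TTN one of 0.916. The other 6 had no entry under their symbols among the 20745 genes. Of the podocyte markers given here, CD2AP had a base mean of 929 and ACTN4 one of 14320, whereas SYNPO had 22.8, PODXL 15.3, TCF21 7.20, WT1 6.21 and PTPRO 0.333. NPHS1, which encodes nephrin of the slit diaphragm, had no entry under this symbol among the 20745 genes. ACTN4, an actin crosslinker, was lower with levamisole, with a log2 fold change of -0.63 and an adjusted p of 0.0143 (DESeq2, Benjamini-Hochberg). Whether the state of the cells has a part in the values above was not tested.

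**Figure D2:**
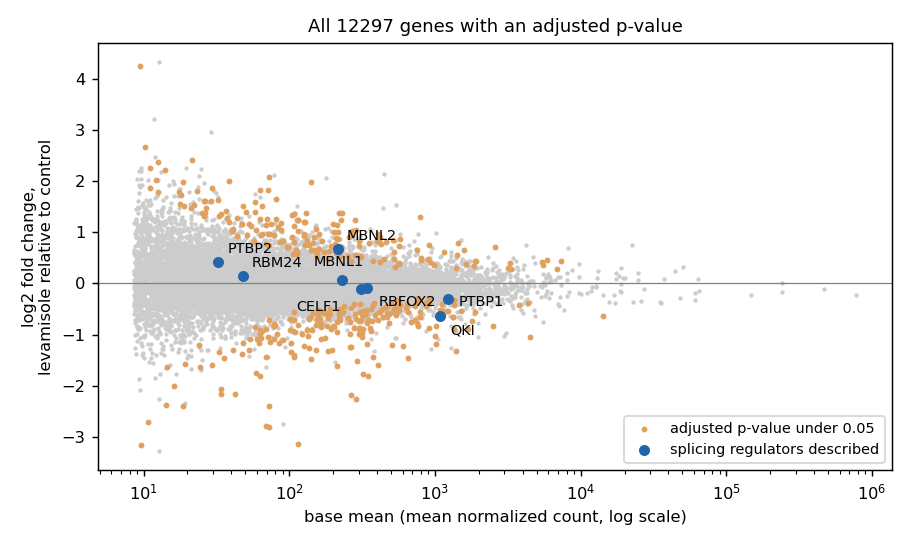
Log2 fold change (vertical axis) against base mean (horizontal axis, log scale) for the 12297 genes with an adjusted p-value, grey, with those under 0.05 in orange and the 8 splicing regulators in blue. QKI and PTBP1 sit far to the right, at base means of 1078 and 1221, where the cloud is narrow, and MBNL2 lies at the upper edge of the cloud at 215.

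Precision differed between the genes beyond their counts. Each standard error was set beside the median of the 200 genes nearest in base mean. The ratio was 0.792 for QKI, 0.812 for CELF1, 0.869 for PTBP2, 0.891 for PTBP1 and 0.943 for RBM24. These 5 genes thus had standard errors below the median of their neighbours. Ratios on either side of 1 are common by construction, since each is taken to a median. Over all 12297 genes with an adjusted p-value the ratio ran from 0.407 to 7.53. The small standard error of QKI also enters the p-value with which it was chosen. The ratio was 1.12 for RBFOX2, 1.23 for MBNL1 and 1.30 for MBNL2, so both muscleblind genes had errors above the median of their neighbours. In GENCODE 44, the final 500 exonic bases of each of the 9 genes held 0 bases that a neighbouring gene on that strand also uses in an exon. Only the outermost end of each gene was examined. Other annotated transcript ends, such as that of QKI-201 and QKI-207 at 163570145, were not. The study's methods give a different annotation, from Ensembl, for the counting of reads, and overlaps in that annotation were not examined.

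**Figure D3:**
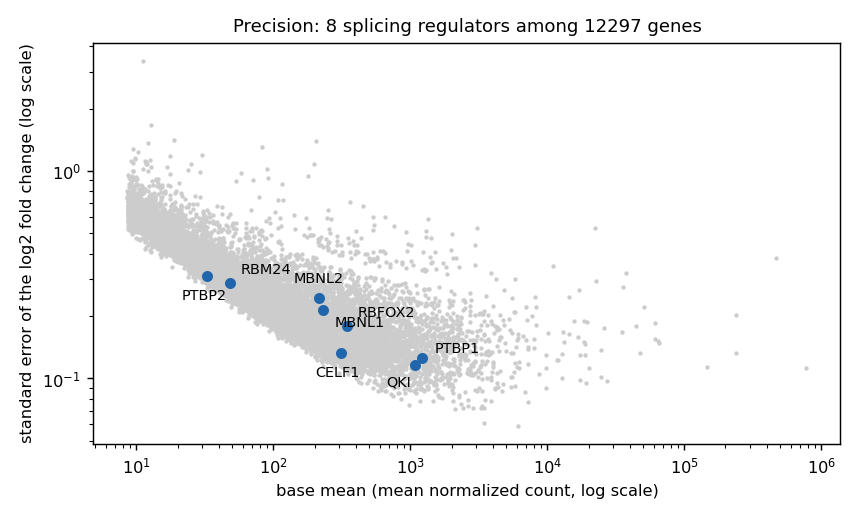
Standard error of the log2 fold change against base mean, both on log scales, for the 12297 genes with an adjusted p-value (grey) and the 8 regulators (blue). The standard errors of the 8 genes run from 0.116 for QKI to 0.311 for PTBP2, and those of MBNL1 and MBNL2 lie above that of CELF1 at a similar base mean.

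Around these regulators, 7 lists held 111 other regulators and parts of the splicing machinery. An adjusted p-value was given for 97 of them and was under 0.05 for 3, 1 higher and 2 lower. This is 3.09%, beside the 3.18% of all genes. An eighth list held 22 genes that are targets and no part of the machinery, described further on, with 2 of 20 under 0.05, which brings the count over the 8 lists to 5 of 117, or 4.27%. The median log2 fold change of the 117 genes was -0.03, with 54 above 0 and 63 below. Their median absolute log2 fold change was 0.19, beside 0.24 over all genes, with base means not matched. Of these genes 0 of 14 SR and TRA2 proteins, 0 of 24 hnRNP proteins, 0 of 29 core spliceosome genes, 0 of 6 paralogues of the regulators and 0 of 3 relatives of QKI in the STAR and SF1 family had an adjusted p-value under 0.05 (DESeq2, Benjamini-Hochberg). At an unadjusted p-value under 0.05 these counts were 5 SR or TRA2 proteins, 5 hnRNP proteins, 2 core spliceosome genes, 0 paralogues and 1 STAR or SF1 gene. The remaining lists had larger shares. They held 7 of 15 other tissue-type regulators (3 higher, 4 lower), 2 of 6 kinases of SR proteins (1 higher, 1 lower) and 7 of 20 targets (4 higher, 3 lower). The share over all genes with an adjusted p-value was 17.1%, and no difference from it was tested. Of the 5 SR or TRA2 genes 2 were higher and 3 lower, the 5 hnRNP genes and the STAR or SF1 gene were lower, and the 2 core spliceosome genes were higher. The core spliceosome is the shared machine that cuts out introns, SR proteins mostly promote exons, and hnRNP proteins often repress them.

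The 3 genes came from 2 lists. ELAVL1, which encodes the RNA-stabilizing protein HuR, was lower with a log2 fold change of -0.33, an interval from -0.51 to -0.16 and an adjusted p of 0.0185 (DESeq2, Benjamini-Hochberg). RBPMS2, a regulator linked to smooth muscle, was lower with a log2 fold change of -0.83, an interval from -1.32 to -0.34 and an adjusted p of 0.0399 (DESeq2, Benjamini-Hochberg). These were 2 of the 15 genes with an adjusted p-value on the list of other tissue-type regulators. That list is broad and holds RNA-binding proteins, such as ELAVL1, beyond tissue-type splicing. For this count, and for the 1 of 6 kinases of SR proteins that follows, the share over all genes was 3.18%. Of 6 kinases of SR proteins, CLK2 was higher with a log2 fold change of 0.79, an interval from 0.45 to 1.12 and an adjusted p of 0.00189 (DESeq2, Benjamini-Hochberg). CLK2 phosphorylates SR proteins in the nucleus, and its log2 fold change was the highest of the 6, while SRPK1 was lowest at -0.43 with an adjusted p of 0.228 (DESeq2, Benjamini-Hochberg).

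Other ends of the lists did not pass the threshold. RBM47, an epithelial regulator, had a log2 fold change of 0.81 (95% interval 0.16 to 1.45). SRSF12, counted at a base mean of only 11.2, had the lowest of the SR proteins, -1.19 (95% interval -2.27 to -0.10), and SRSF5 the highest, 0.42. SYNCRIP was lowest of the hnRNP proteins at -0.40 and HNRNPH2 highest at 0.33. PRPF31 and SNRNP200 marked the ends of the core spliceosome at -0.34 and 0.41. Beside QKI, the relatives KHDRBS1 and SF1 had log2 fold changes of 0.06 and -0.33, and SF1, which recognizes the branch point, had an adjusted p of 0.262 (DESeq2, Benjamini-Hochberg). U2AF1 had no adjusted p-value, and its reads can be shared with a near-identical copy in this assembly.

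**Figure D4:**
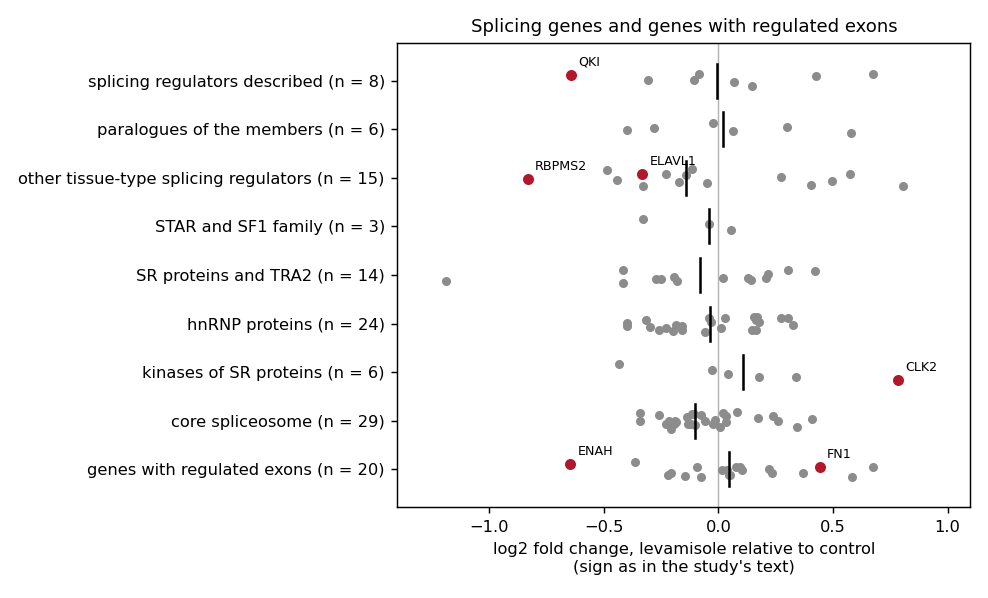
Log2 fold change with levamisole relative to control (horizontal axis) for each gene with an adjusted p-value in 9 sets, the 8 regulators on top and 8 lists beneath. Each point is a gene, red and named where the adjusted p-value is under 0.05, and the black bar is the median of the set. Of all sets shown, the medians lie between -0.14 and 0.11.

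Of 22 genes with exons that these regulators are known to control, 20 had an adjusted p-value and 2 were under 0.05. This is 10%, beside 3.18% of all genes with an adjusted p-value, and the difference was not tested. ENAH, an actin regulator with an exon that epithelial splicing includes, was lower with a log2 fold change of -0.65, an interval from -1.04 to -0.26 and an adjusted p of 0.0429 (DESeq2, Benjamini-Hochberg). FN1, which encodes fibronectin, was higher with a log2 fold change of 0.44, an interval from 0.17 to 0.72 and an adjusted p of 0.0478 (DESeq2, Benjamini-Hochberg). The highest of the 20 was ARHGEF11 at 0.67 (95% interval 0.19 to 1.16). Their median log2 fold change was 0.05. These are totals per gene and say nothing of which exons were used.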

How the data were processed

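Groups follow the treatment label, since sample titles of both groups hold the word control. RNA from 3 control and 3 levamisole-treated podocyte cultures was sequenced by the authors. Per the labels and the study's methods, the authors trimmed reads with Trim Galore 0.4.5, mapped them to GRCh38 with STAR 2.7.5a, counted them with HTSeq 0.11.0 and compared groups with DESeq2 1.22.0; the deposited columns are the authors' own comparison. The deposited base mean, a signal, is the mean normalized count of all libraries in the fit. The deposited log2 fold change and its standard error are on the log2 scale, and the deposited Wald statistic is a score. The deposited p-value and adjusted p-value come from their Wald test and Benjamini-Hochberg adjustment, and 12297 of 20745 genes have the latter.

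From these, signs were reversed, and intervals (1.96 standard errors, so 95%), ratios, counts and medians were computed with Python 3.11.15, NumPy 2.4.6 and pandas 2.3.3, with figures from matplotlib 3.10.9. The intervals rest on 3 cultures a group and a normal approximation. The Benjamini-Hochberg function and its calls under 0.05 were tried on simulated statistics. The counts made from the deposited adjusted p-values were not part of that trial. Positions and sequences are from GENCODE 44 on GRCh38.

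The members and lists were chosen with earlier results of these data known. All 9 members are named. Of each other list, genes with an adjusted p-value under 0.05 and the highest and lowest log2 fold change are named, as are paralogues with a base mean of at least 5 and, beside ESRP1, RBM24 and the podocyte label, marker genes. Some podocyte markers are not reported here. Genes alike in pattern were not sought, because there are no values per culture.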

Additional observations from a re-analysis of the deposited data

How the results depend on the processing

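The 7 alternatives run change the adjustment or the threshold alone, so no direction could turn. QKI was past the threshold in each, but it was chosen with its adjusted p-value known, so this says nothing of its stability. The count of the regulators past the threshold, 1 by the main rule, was 2 at an adjusted p-value under 0.1 (QKI and MBNL2) and 3 at an unadjusted p-value under 0.05 (QKI, MBNL2 and PTBP1). The 5 genes of the 8 other lists, 3 of regulators or machinery and the targets ENAH and FN1, became 1 at an adjusted p-value under 0.01, 2 when Benjamini-Hochberg adjustment took in every gene that has a p-value, 0 with Bonferroni adjustment and 30 at an unadjusted p-value under 0.05. The 30 are of the 126 listed genes in the table, among them MSI1, which has no adjusted p-value, and 29 are of the 117 genes that have one, beside 11.1% and 17.1% of all genes. These alternatives differ in how strict they are or in how many genes they adjust over. No paired analysis was possible because no values per culture were analysed here. For the same reason other normalizations and the leaving out of single cultures were not run, and an influence of 1 culture on any value was not tested.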

Other observations

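MSI1 and TCF21, listed genes outside the 9 regulators, had large values but no adjusted p-value, and were chosen with their values in view. MSI1, an RNA-binding protein of stem and progenitor cells, had a base mean of 6.91 and a log2 fold change of -3.79 (95% interval -6.13 to -1.45). TCF21, a transcription factor of podocytes and mesenchyme, had a base mean of 7.20 and a log2 fold change of -2.75 (95% interval -4.78 to -0.72). MSI2, the relative of MSI1, had a base mean of 338 and a log2 fold change of 0.50 (95% interval -0.05 to 1.05). At such base means the size of a fold change is poorly known, and the cause of either value was not tested.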
